A study of Rattus norvegicus with 8 samples.

Results

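The 9 genes described here are CC chemokines and a receptor measured in rat lung: the ligand genes Ccl2, Ccl3, Ccl4, Ccl5, Ccl7, Ccl17, Ccl20 and Ccl22, and Ccr2, which encodes the receptor for Ccl2 and Ccl7. They were chosen by name, and their probes were found by matching the RefSeq accession of each probe, without its version, to the rat gene. All 9 had a probe, 12 probes in all: 3 for Ccl22, 2 for Ccl20 and 1 for each of the others. Of the 9 genes, 8 were among the 25231 features tested. Ccl7 was not, because its probe was not well above background on both arrays of any group.

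The study measured expression in male rat lung on 8 one-colour arrays, with 2 arrays in each of 4 groups. Lungs of the smoke then EV group had 12 weeks of cigarette smoke followed in week 13 by hUC-MSC-EV, extracellular vesicles of human umbilical cord mesenchymal stem cells, and lungs of the smoke then MSC group had the same smoke followed in week 13 by the hUC-MSC themselves. Both were delivered into the trachea, the vesicles from as many cells as the MSC group received. The smoke group had 12 weeks of smoke and no such treatment, and the naive group breathed normal air. The labels give no strain, no age and no sham-treated group, the donor cells are human in a rat host, and nothing says that the 2 arrays of a group came from separate animals. The p-values therefore rest on the spread between arrays that may be technical. Each group fills 1 column of a single slide, so slide column and group cannot be told apart. In bulk lung RNA, fewer cells of a type and less RNA per cell cannot be told apart.

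CC chemokines are small secreted proteins with adjacent cysteines near the N terminus, and they attract leukocytes through receptors coupled to G proteins. In mouse and human, Ccl2 and Ccl7 draw monocytes out of blood through Ccr2, Ccl3, Ccl4 and Ccl5 act on T cells, NK cells and macrophages, Ccl17 and Ccl22 act on T cells through Ccr4, and Ccl20, made by airway epithelium among others, acts on dendritic cells and lymphocytes through Ccr6. Cigarette smoke is known to raise leukocyte numbers in the lung, and these ligands are part of how such cells are called in.

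Upstream sequence from RefSeq, build GRCr8, was matched for 5 of the 9 genes: Ccl7, Ccl17, Ccl20, Ccl22 and Ccr2. The 250 bases before the start are shown for Ccl7, a Ccr2 ligand and the only one of the 5 with a match to the motifs searched, and for Ccl17 and Ccl22, the ligands of Ccr4, whose smoke and naive arrays were ordered in opposite ways. Capitals mark matches on either strand to a form of the NF-kB site that reads GGGA, any 2 bases and TTCC, to TGANTCA, the AP-1 site, and to TATAAA. The stretches are chr10:67513845-67514094, plus strand, for Ccl7, chr19:10209896-10210145, minus strand, for Ccl17 and chr19:10270360-10270609, minus strand, for Ccl22.
Ccl7: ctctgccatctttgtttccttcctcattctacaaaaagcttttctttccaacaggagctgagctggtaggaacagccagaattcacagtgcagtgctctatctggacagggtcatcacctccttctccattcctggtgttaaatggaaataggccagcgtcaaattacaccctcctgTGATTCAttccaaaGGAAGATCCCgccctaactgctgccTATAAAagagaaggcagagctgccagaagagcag
Ccl17: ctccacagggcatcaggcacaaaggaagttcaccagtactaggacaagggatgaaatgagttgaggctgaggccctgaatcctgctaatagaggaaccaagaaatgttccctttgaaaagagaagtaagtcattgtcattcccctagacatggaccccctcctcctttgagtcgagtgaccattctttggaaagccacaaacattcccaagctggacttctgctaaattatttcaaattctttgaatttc
Ccl22: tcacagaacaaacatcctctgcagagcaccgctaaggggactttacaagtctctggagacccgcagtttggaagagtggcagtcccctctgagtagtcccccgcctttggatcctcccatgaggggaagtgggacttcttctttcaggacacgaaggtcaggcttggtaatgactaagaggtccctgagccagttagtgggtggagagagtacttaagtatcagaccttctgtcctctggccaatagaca
Ccl7 held 1 match to each motif, at 73, 59 and 34 bases before the start for the AP-1, NF-kB and TATA letters, and none overlapped another. The other 4 windows held no match to these letters. Of all 33469 promoters of this length in the table, 1.08% held the NF-kB form, 6.34% the AP-1 site and 12.9% TATAAA.

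A level here is the log2 of a probe's processed signal minus the log2 of its array's 75th percentile, which places a probe within its own array. The arrays differed in brightness: the 75th percentile was 762 and 483 on the EV arrays, 246 and 256 on the MSC arrays, 3235 and 2677 on the smoke arrays and 568 and 362 on the naive arrays. It was 6.49 times as high in the smoke group as in the naive group, while the E1A spike-in controls, RNAs of known amount that come with the array kit, had 0.832 times the signal they had there. The median difference of all features on this percentile scale was -0.62 for smoke minus naive, 0.55 for EV minus smoke, 0.75 for MSC minus smoke and -0.28 for EV minus MSC. With scaling to the E1A controls instead, called E1A scaling here, the same medians were 2.34, -1.93, -3.28 and 1.26. All 8 lung markers, Sftpc and Scgb1a1 among them, were well above background on every array. The arrays of the MSC group stood apart from each other: the summed level of the heart muscle markers was 1.505 and 6.12 on them, and that of the B cell markers 1.01 and 2.50. The heart muscle markers also split the EV arrays, at 4.88 and 0.81. Precision is limited throughout by the number of arrays.

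**Figure D1:**
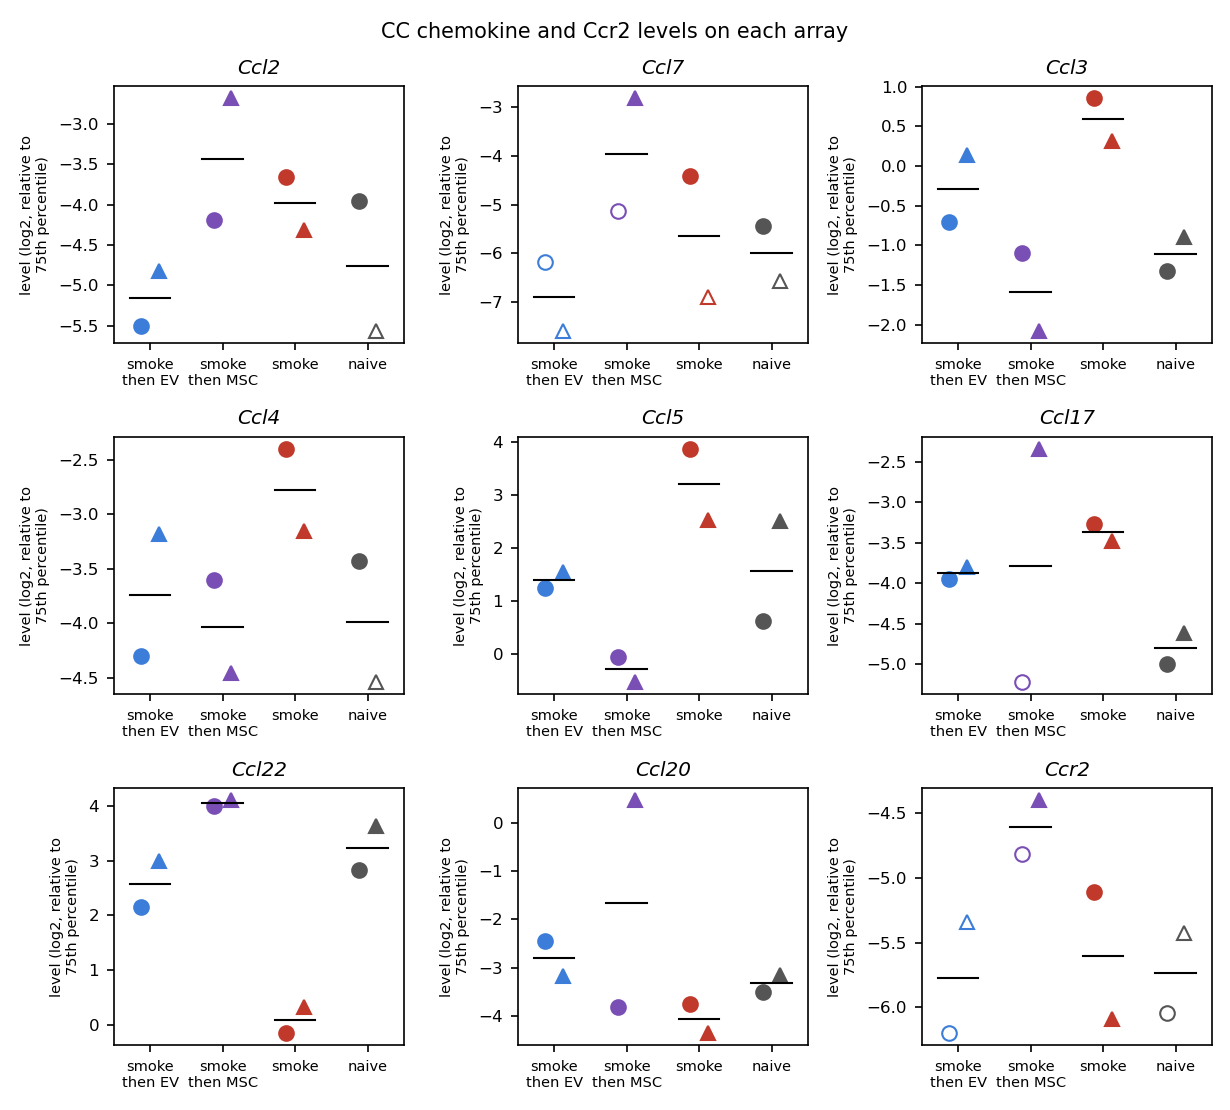
Level of each of the 9 genes on every array (y axis, log2 relative to the 75th percentile of the array), by group along the x axis. Circles are replicate 1, triangles replicate 2, open symbols are probes not well above background, and bars are group means. The smoke arrays are the highest for Ccl3 and Ccl5 and the lowest for Ccl22, and MSC replicate 2 is the highest array for Ccl2, Ccl7, Ccl17, Ccl20, Ccl22 and Ccr2.

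The comparison of smoke with naive lung asked what 12 weeks of smoke changed. Ccl3, which attracts macrophages and T cells, rose in smoke-exposed lung, and the bright probe of the Ccr4 ligand Ccl22 fell on the percentile scale. Of the 8 tested genes 2 passed limma's threshold, 1 higher and 1 lower, where 47.5% of all features passed, 12.1% higher and 35.4% lower. The groups did not overlap for 6 of the 8, against 79.4% of all features, and the median difference of the 8 was 0.99, against -0.62 over all features.

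Ccl3, also called MIP-1 alpha, stood at 0.86 and 0.31 on the smoke arrays, against -1.33 and -0.90 on the naive arrays. Both smoke arrays lay above both naive arrays. The difference was 1.70 log2 (SE 0.45, limma adjusted p = 0.0191), a 3.25-fold ratio, and it was not called without naive replicate 1 (1.48, limma adjusted p = 0.0832) or without smoke replicate 1 (1.42, limma adjusted p = 0.121). Before any scaling its signal was 5884 and 3328 on the smoke arrays, against 227 and 195 on the naive arrays. With E1A scaling the difference was 4.66, above the median of all features on that scale as well.

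Ccl5, also called RANTES, stood at 3.87 and 2.53 on the smoke arrays, against 0.61 and 2.50 on the naive arrays. The groups were barely apart, since naive replicate 2 almost reached smoke replicate 2. The difference of 1.65 log2 (SE 0.66) did not pass, with limma adjusted p = 0.0736, and it passed without naive replicate 2, at 2.59 (limma adjusted p = 0.0237), and with quantile normalization, at 2.19 (limma adjusted p = 0.0407). It was 0.70 without naive replicate 1 and 0.98 without smoke replicate 1, both with limma adjusted p = 0.366. Ccl4, a close relative of Ccl3, stood at -2.40 and -3.16 on the smoke arrays, against -3.43 and -4.54 on the naive arrays. Naive replicate 2 of Ccl4 was not well above background. Its difference was 1.21 log2 (SE 0.56, limma adjusted p = 0.110).

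NK cells and cytotoxic T cells are known sources of Ccl3, Ccl4 and Ccl5. Of 5 measured NK markers 3 were called higher in smoke and 0 lower, while Klrd1 differed by -0.32. Under normexp Klrk1, called higher on the percentile scale, turned to -0.84. Klrk1 and the T cell marker Cd8a were well above background on both arrays of the smoke group alone. They were therefore tested only through the group where they were high, in each comparison with smoke. Monocyte and macrophage markers were called higher too, 5 of 12, with 2 lower. The summed NK marker level was 2.67 and 1.33 on the smoke arrays, against 0.55 and -0.13 on the naive arrays, and Klrk1 was not well above background on either naive array and Klrd1 on naive replicate 2. Of 9 measured T cell markers 1, Cd8a, was called higher and 3 lower, where 12.1% and 35.4% of all features were. The 3 called lower each turned above 0 with E1A scaling. The summed T cell level was 1.15 and 0.40 on the smoke arrays, against 1.35 and 1.20 on the naive arrays, with Cd8a and Cd5 not well above background on either naive array. The part of these cells in the chemokine differences was not tested.

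Ccl2, the monocyte chemoattractant also called MCP-1, was measured by 10 spots per array. It stood at -3.66 and -4.31 on the smoke arrays, against -3.96 and -5.57 on the naive arrays, where replicate 2 was not well above background. The groups overlapped, and the spots of an array varied by an SD of 0.10 to 0.32 log2, less than the arrays of a group differed. Ccl7, which shares the receptor Ccr2, stood at -4.41 and -6.89 on the smoke arrays, against -5.44 and -6.56 on the naive arrays. It was well above background on replicate 1 of both groups and on replicate 2 of neither, so it was not tested.

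Ccr2, their receptor on monocytes, was close to background. It stood at -5.11 and -6.09 on the smoke arrays, well above background on both, against -6.05 and -5.43 on the naive arrays, where it was not. The groups overlapped, and on the percentile scale the mean smoke level was 1.10-fold higher. The difference of 0.14 log2 (limma adjusted p = 0.825, limma interval -0.94 to 1.21) had no stable direction. It was called lower under normexp (-1.71, limma adjusted p = 9.6e-05) and higher with E1A scaling (3.099, limma adjusted p = 0.000227), and it was -0.36 without smoke replicate 1 and -0.17 without naive replicate 1.

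Ccl17 stood at -3.26 and -3.47 on the smoke arrays, against -5.00 and -4.61 on the naive arrays. All 4 values were well above background and both smoke arrays lay above both naive arrays, but the difference of 1.43 log2 (SE 0.79) had limma adjusted p = 0.167 in the fit of all 8 arrays, whose MSC arrays were far apart for this gene. It passed without either MSC array (limma adjusted p = 0.00705). Ccl20, the ligand of Ccr6, stood at -3.75 and -4.35 on the smoke arrays, against -3.50 and -3.15 on the naive arrays. Its difference was -0.73 log2 (SE 1.16, limma adjusted p = 0.619), turned to 2.23 with E1A scaling, and its other probe gave -0.90.

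Of the 2 genes with several probes, Ccl22 had probes that went apart, while those of Ccl20 gave like values. The probe that represents it, A_44_P1160818, stood at -0.15 and 0.33 on the smoke arrays, against 2.83 and 3.62 on the naive arrays, a difference of -3.14 log2 (SE 0.41, limma adjusted p = 0.00234). Its signal before scaling was 2916 and 3376 on the smoke arrays, against 4049 and 4464 on the naive arrays, and over all 8 arrays the highest signal was 1.53 times the lowest, where the 75th percentile of the arrays varied 13.2-fold. The SD of its log2 signal, 0.21, was smaller than that of all but 0.502% of features, and its difference was -0.17 with E1A scaling (limma adjusted p = 0.739).

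The other 2 Ccl22 probes were dimmer and followed the arrays. Probe A_64_P157748 had signals of 152 and 129 on the smoke arrays, against 43.8 and 20.1 on the naive arrays, and probe A_44_P1159750 had 125 and 101 on the smoke arrays, against 38.9 and 14.9 on the naive arrays. Neither was well above background on naive replicate 2. With every kept probe tested on its own, their percentile-scale differences were -0.46 (SE 0.31, limma adjusted p = 0.255) and -0.48 (SE 0.45, limma adjusted p = 0.403). The call for Ccl22 in smoke was kept with quantile normalization (-2.83, limma adjusted p = 0.00510) and under normexp (-2.98), and lost with E1A scaling and with the probe of lowest signal. The sequence of the bright probe was not analysed here, so what its nearly constant signal measures was not checked, and this holds for the Ccl22 call in each comparison.

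**Figure D2:**
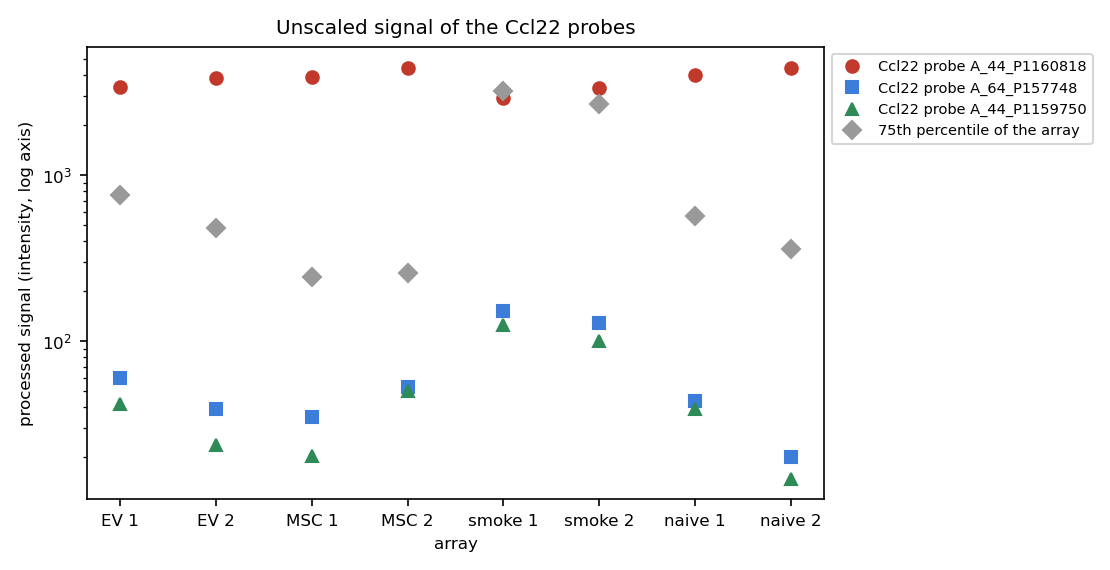
Processed signal before any scaling (y axis, intensity on a log axis) of the 3 Ccl22 probes on the 8 arrays (x axis), with the 75th percentile of each array as diamonds. The bright probe stays between 2916 and 4464 on every array, while the dim probes are highest on the smoke arrays, at 101 to 152.

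The comparison of the EV group with the smoke group asked what vesicles given after smoke changed. Ccl22, by the bright probe whose sequence was not checked, was called among the 8 tested genes, and no ligand that was higher in smoke passed as lower, though Ccl5 came nearest. In all 1 of 8 passed, as higher, where 39.8% of all features passed, 29.8% higher and 9.92% lower. The groups did not overlap for 7 of the 8, against 82.8% of all features, and the median difference of the 8 was -0.69, against 0.55 over all features.

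Ccl5 stood at 1.25 and 1.55 on the EV arrays, against 3.87 and 2.53 on the smoke arrays. Both EV arrays lay below both smoke arrays. The difference was -1.80 log2 (SE 0.66, 95% interval -3.34 to -0.26, limma adjusted p = 0.0630), and -4.29 with E1A scaling. It passed with quantile normalization, at -2.27 (limma adjusted p = 0.0448), and in a fit of these 4 arrays alone (limma adjusted p = 0.0334).

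Ccl3 stood at -0.70 and 0.14 on the EV arrays, against 0.86 and 0.31 on the smoke arrays. The difference was -0.87 log2 (SE 0.45, limma adjusted p = 0.158). Ccl4 stood at -4.30 and -3.18 on the EV arrays, against -2.40 and -3.16 on the smoke arrays, with EV replicate 2 level with smoke replicate 2. Its difference of -0.96 log2 (SE 0.56) had limma adjusted p = 0.202. Of the NK markers 0 of 5 were called higher and 3 lower, and their summed level was 0.62 and 0.13 on the EV arrays, against 2.67 and 1.33 on the smoke arrays, with Klrk1 not well above background on EV replicate 2. Klrk1, among the 3 called lower, turned to 0.48 under normexp, while Gzmb and Prf1 stayed below 0. Of the 9 T cell markers 2 were called higher, each below 0 with E1A scaling, and 1, Cd8a, lower. Their part in the chemokine values was not tested.

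Ccl2 stood at -5.498 and -4.82 on the EV arrays, against -3.66 and -4.31 on the smoke arrays. Both EV arrays lay below both smoke arrays, with a difference of -1.18 log2 (SE 0.67, limma adjusted p = 0.190) that passed in a fit of these 4 arrays alone (limma adjusted p = 0.0477) and turned to 0.48 under normexp background correction. Ccl7 stood at -6.18 and -7.60 on the EV arrays, against -4.41 and -6.89 on the smoke arrays, and was not well above background on either EV array. Ccr2 stood at -6.20 and -5.34 on the EV arrays, where it was not well above background, against -5.11 and -6.09 on the smoke arrays. The groups overlapped, and on the percentile scale the mean EV level was 1.13-fold lower. The difference was -0.17 log2 (limma adjusted p = 0.782, limma interval -1.24 to 0.90). It turned to 1.38 under normexp (limma adjusted p = 0.000802), to 0.26 without EV replicate 1 and to 0.32 without smoke replicate 1. With E1A scaling it was -2.65 (limma adjusted p = 0.00107).

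Ccl17 stood at -3.94 and -3.80 on the EV arrays, against -3.26 and -3.47 on the smoke arrays, and the difference was -0.50 log2 (SE 0.79, limma adjusted p = 0.630). Ccl20 stood at -2.45 and -3.16 on the EV arrays, against -3.75 and -4.35 on the smoke arrays, a difference of 1.25 log2 (SE 1.16, limma adjusted p = 0.409). It passed without either MSC array (limma adjusted p = 0.0340) and in a fit of these 4 arrays alone (limma adjusted p = 0.0404), and turned to -1.24 with E1A scaling. The bright Ccl22 probe stood at 2.15 and 2.999 on the EV arrays, against -0.15 and 0.33 on the smoke arrays. Its difference was 2.48 log2 (SE 0.41, limma adjusted p = 0.00556), and -0.0007 with E1A scaling, and it was not called without smoke replicate 1 (2.24, limma adjusted p = 0.0519). The dim probes differed by 0.75 and 0.45 log2 (limma adjusted p = 0.0930 and 0.449).

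**Figure D3:**
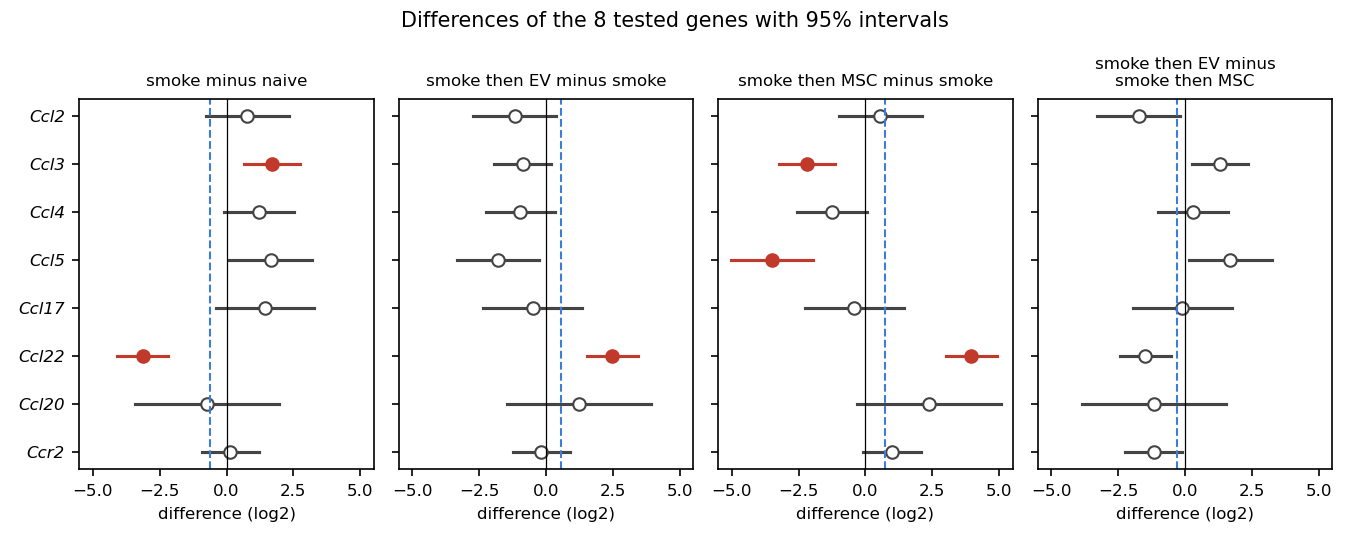
Log2 difference of each tested gene (x axis) with its 95% interval from limma, in 4 comparisons. Filled red points passed at an adjusted p under 0.05, and the dashed line is the median of all features. Ccl3 is the only ligand called in the comparison with naive lung besides Ccl22, and Ccl3 and Ccl5 are called lower after MSCs.

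The comparison of the MSC group with the smoke group asked what stem cells given after smoke changed. Ccl5 and Ccl3 fell, and Ccl4 lay below both smoke arrays without passing. Of the 8 tested genes 3 passed, 1 higher and 2 lower, where 59.7% of all features passed, 43.3% higher and 16.4% lower. The groups did not overlap for 5 of the 8, against 80.5% of all features, and the median difference of the 8 was 0.07, against 0.75 over all features.

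Ccl5 stood at -0.06 and -0.54 on the MSC arrays, against 3.87 and 2.53 on the smoke arrays. The difference was -3.50 log2 (SE 0.66, 95% interval -5.04 to -1.96, limma adjusted p = 0.00308), and it passed under every alternative that was run for it, at -2.83 to -7.52 log2. Its signal before scaling was 237 and 176 on the MSC arrays, against 47390 and 15490 on the smoke arrays. The MSC arrays also lay below both naive arrays, which stood at 0.61 and 2.50.

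Ccl3 stood at -1.10 and -2.08 on the MSC arrays, against 0.86 and 0.31 on the smoke arrays. The difference was -2.18 log2 (SE 0.45, limma adjusted p = 0.00473), and it too passed under every alternative that was run for it, at -1.68 to -6.20 log2. Ccl4 stood at -3.61 and -4.46 on the MSC arrays, against -2.40 and -3.16 on the smoke arrays. Its difference of -1.25 log2 (SE 0.56) had limma adjusted p = 0.0873, passed with quantile normalization at -1.99 (limma adjusted p = 0.0267), and turned to 0.59 under normexp. Of the NK markers 0 of 5 were called higher and 4 lower, and their summed level was 0.10 and -0.37 on the MSC arrays, against 2.67 and 1.33 on the smoke arrays, with Klrk1 not well above background on either MSC array. Under normexp Klrk1, among the 4 called lower, turned to 1.49 and the T cell marker Cd8a to 0.20, while Gzmb, Prf1 and Nkg7 stayed below 0. Of the T cell markers 4 of 9 were called higher, each below 0 with E1A scaling, and 1, Cd8a, lower, where 43.3% and 16.4% of all features were. Their part in the chemokine values was not tested.

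For Ccl2, Ccl7, Ccl17 and Ccl20 the 2 MSC arrays were far apart. Ccl20 stood at -3.81 and 0.47 on the MSC arrays, against -3.75 and -4.35 on the smoke arrays, so that replicate 1 lay among the smoke arrays and replicate 2 above every other array. The 2.39 log2 difference (SE 1.16, limma adjusted p = 0.110) was 4.53 without MSC replicate 1 (limma adjusted p = 0.00210), 0.25 without MSC replicate 2 (limma adjusted p = 0.649) and -1.63 with E1A scaling. Its other probe stood at -4.51 and 0.09 on the MSC arrays, with the same array high.

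Ccl17 stood at -5.22 and -2.34 on the MSC arrays, against -3.26 and -3.47 on the smoke arrays, with MSC replicate 1 not well above background. The difference of -0.41 log2 (limma adjusted p = 0.674) was 1.03 without MSC replicate 1 (limma adjusted p = 0.0364) and -1.85 without MSC replicate 2 (limma adjusted p = 0.00431), so its direction depended on the array left out. Ccl2 stood at -4.19 and -2.68 on the MSC arrays, against -3.66 and -4.31 on the smoke arrays. The difference was 0.55 log2 (SE 0.67, limma adjusted p = 0.5002), -0.21 without MSC replicate 2 and -3.47 with E1A scaling.

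Ccl7 stood at -5.12 and -2.80 on the MSC arrays, against -4.41 and -6.89 on the smoke arrays, well above background on MSC replicate 2 only of the MSC arrays. Ccr2 stood at -4.82 and -4.40 on the MSC arrays, against -5.11 and -6.09 on the smoke arrays. It was well above background on 1 of the 2 MSC arrays, and the difference of 0.99 log2 (SE 0.46, limma adjusted p = 0.0974) turned to -0.15 with quantile normalization and to -3.03 with E1A scaling. Heart muscle and B cell markers were also higher on MSC replicate 2 than on MSC replicate 1, by their summed levels given above, and their part in these values was not tested.

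The bright Ccl22 probe stood at 4.002 and 4.11 on the MSC arrays, against -0.15 and 0.33 on the smoke arrays, a difference of 3.96 log2 (SE 0.41, limma adjusted p = 0.000305) that was -0.06 with E1A scaling. Here the dim probes were called too on the percentile scale. Probe A_64_P157748 stood at -2.81 and -2.27 on the MSC arrays, against -4.41 and -4.38 on the smoke arrays, a difference of 1.85 log2 (SE 0.31, limma adjusted p = 0.00192). Probe A_44_P1159750 differed by 1.75 log2 (SE 0.45, limma adjusted p = 0.0120). Their signals before scaling ran the other way, at 20.4 to 53.0 on the MSC arrays, against 101 to 152 on the smoke arrays.

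The comparison of EV with MSC asked whether the treatments differ. By limma 0 of the 8 tested genes passed, where 7.11% of all features did, 1.79% higher and 5.33% lower. Before adjustment 5 of the 8 had a limma p under 0.05. The highest of these p-values, that of Ccr2, ranked only 6813 among the 25231 features, so a p this low was common. The groups did not overlap for 5 of the 8, against 61.3% of all features, and the median difference of the 8 was -0.62, against -0.28 over all features. Ccl5 was at 1.25 and 1.55 on the EV arrays, against -0.06 and -0.54 on the MSC arrays, a difference of 1.70 log2 (95% interval 0.16 to 3.24, limma adjusted p = 0.133).

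Ccl3 differed by 1.31 log2 (95% interval 0.25 to 2.36, limma adjusted p = 0.104), and Ccl4 by 0.30 (95% interval -1.01 to 1.60, limma adjusted p = 0.749). Ccl2 differed by -1.73 log2 (95% interval -3.28 to -0.18, limma adjusted p = 0.130) and the bright Ccl22 probe by -1.48 (95% interval -2.43 to -0.53, limma adjusted p = 0.0643). Ccr2 was well above background on no EV array and 1 MSC array, and its signals before scaling overlapped, at 10.4 and 11.9 on the EV arrays, against 8.71 and 12.2 on the MSC arrays. Relative to the 75th percentile the mean MSC level was 2.24-fold higher. The difference of -1.16 log2 (95% interval -2.23 to -0.09, limma adjusted p = 0.137) turned to 0.37 with E1A scaling. The interval was -1.94 to 1.75 for Ccl17 and -3.83 to 1.55 for Ccl20, the genes whose MSC arrays were far apart. A missed threshold does not show that the treatments act alike.

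Set side by side over the 4 groups, Ccl3 was highest on the smoke arrays, and its group means were -0.28 in the EV group, -1.59 in the MSC group, 0.59 in the smoke group and -1.11 in the naive group. The EV and naive arrays of Ccl3 did not overlap, and the MSC and naive arrays did. Ccl5 had group means of 1.40, -0.30, 3.20 and 1.56 in the same order, and its EV arrays lay between its naive arrays. For Ccl2 the means were -5.16, -3.43, -3.98 and -4.76, and each group overlapped the next when ordered by these means. The comparisons with smoke share the smoke arrays.

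**Figure D4:**
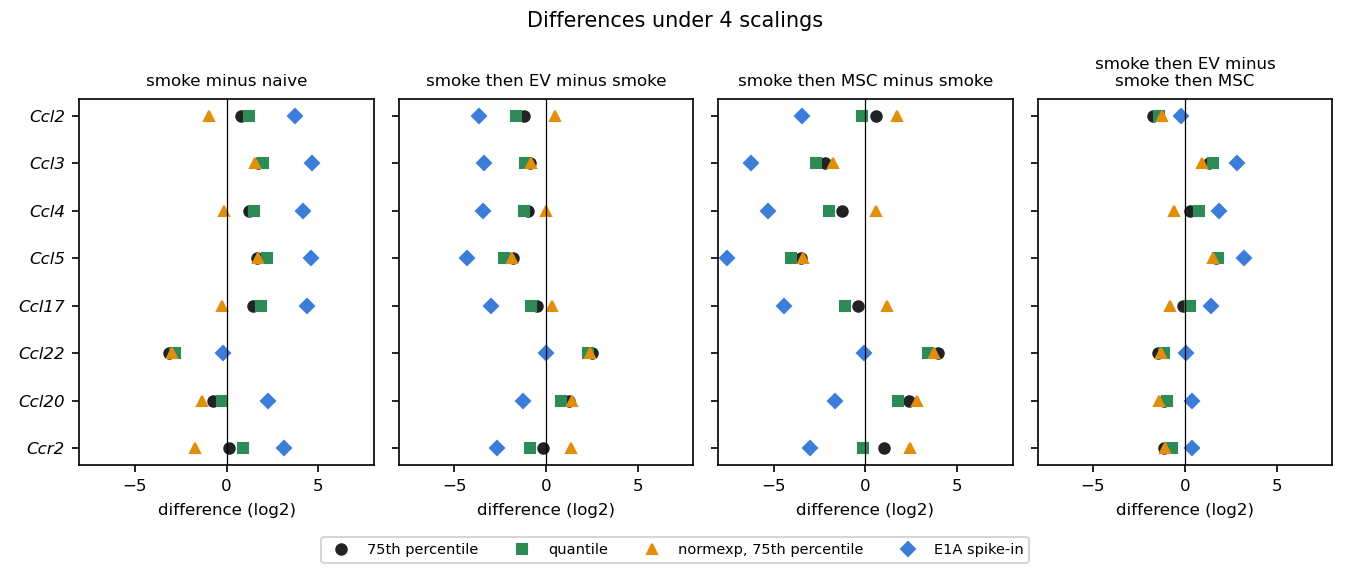
Log2 difference of each tested gene (x axis) under the 75th percentile scale, quantile normalization, normexp background correction and scaling to the E1A spike-in controls, in 4 comparisons. Ccl3 and Ccl5 keep their direction under all 4 in every comparison, while Ccl2, Ccl4, Ccl17, Ccl20, Ccl22 and Ccr2 each cross 0 in at least 1 comparison.

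The direction of Ccl2, Ccl4, Ccl17, Ccl20, Ccr2 and the bright Ccl22 probe depended on the scale in at least 1 comparison. Of the calls over all features, 25.4%, 75.1%, 72.6% and 25.1% were higher in smoke versus naive, EV versus smoke, MSC versus smoke and EV versus MSC on the percentile scale, against 46.6%, 54.9%, 50.1% and 55.6% with quantile normalization, 10.3%, 89.1%, 89.0% and 5.91% under normexp and 99.4%, 1.01%, 0.889% and 99.9% with E1A scaling. Ccl3 and Ccl5 lay on the same side of 0 under the 75th percentile, quantile normalization, normexp and E1A scaling in each comparison, and with E1A scaling they lay beyond the median of all features, at 4.66 and 4.61 in smoke versus naive, where that median was 2.34, and at -6.20 and -7.52 in MSC versus smoke, where it was -3.28. With E1A scaling 7 of the 8 genes passed as higher in smoke versus naive, where 83.1% of all features passed in either direction, and 6 passed as lower in MSC versus smoke, where 88.7% did. Under normexp, which compresses signals near background, Ccl2 turned to -0.95, Ccr2 to -1.71, Ccl17 to -0.25 and Ccl4 to -0.14 in smoke versus naive.

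The other CC ligands and receptors came from lists of 12 and 14 genes, of which 9 each were measured. Among the ligands, 1 was called higher in smoke than in naive lung and 2 lower, where 12.1% and 35.4% of all features were, with a median of -0.20, against -0.62 over all features. Ccl6, a macrophage chemokine of rodents, was the one called higher, at 1.44 (limma adjusted p = 0.0336). The eosinophil chemokine Ccl24 (-1.43) and the skin chemokine Ccl27 (-1.27) were called lower, and turned to 1.53 and 1.69 with E1A scaling. After EVs 2 ligands were called higher and 0 lower, where 29.8% and 9.92% of all features were, with a median of 0.89, against 0.55 over all features: Ccl24 at 1.31 and Ccl9 at 1.07, which turned to -1.17 and -1.42 with E1A scaling.

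After MSCs 3 ligands were called higher than in smoke and 1 lower, where 43.3% and 16.4% of all features were, with a median of 1.12, against 0.75 over all features. Ccl6 was lower at -1.94 (limma adjusted p = 0.00776). Ccl24 (2.52) and Ccl27 (1.70) were higher and turned to -1.50 and -2.33 with E1A scaling. Ccl19, the lymphoid tissue ligand of Ccr7, was higher by 4.04 (limma adjusted p = 0.0258, and 0.02 with E1A scaling), but its MSC arrays stood at 0.07 and 4.55, against -2.33 and -1.14 on the smoke arrays. In EV versus MSC, Ccl9 was called higher (1.49) and Ccl24 lower (-1.21, which turned to 0.33 with E1A scaling).

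Among the receptors 0 were called higher and 3 lower in smoke than in naive lung, 2 higher and 0 lower in EV than in smoke, and 6 higher and 1 lower in MSC than in smoke, with medians of -1.10, 0.78 and 1.82, against -0.62, 0.55 and 0.75 over all features. The shares of all features called in each direction are those given for the ligands. In EV versus MSC limma called 0 of 9, where 7.11% of all features were called. Ccr9 was called in smoke versus naive (-2.11) and in EV versus smoke (1.79), and turned to 0.86 and -0.69 with E1A scaling. Ccr1l1 was called in smoke versus naive (-1.16) and turned to 1.81.

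After MSCs the receptors called higher included Ccr6 (2.47), the receptor for Ccl20, and the decoy receptor Ackr2 (2.37), which turned to -1.55 and -1.65 with E1A scaling. Ackr2 was not well above background on MSC replicate 1, and its smoke arrays stood at only -7.42 and -6.36. Ccr6 stood at -0.94 and 1.44 on the MSC arrays, against -2.31 and -2.13 on the smoke arrays, so it too was higher on MSC replicate 2. Ccr1 was well above background on both smoke arrays and on no other array, so it was tested only through the group where it was high. Its smoke level was at least 1.02-fold higher than its MSC level on the percentile scale (-1.38 log2, limma adjusted p = 0.0444). This difference turned to 2.16 under normexp.

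The genes whose level followed Ccl2 most closely over the 8 arrays, among 12781 named features, were Hs3st1, Pdgfrl and Hist2h3c2, with Pearson correlations of 0.972, 0.961 and 0.939. Among those closest to Ccr2 were Lemd3 and Aldoa, at 0.961 and 0.960, but Ccr2 was well above background on 3 of the 8 arrays, so these values rest mostly on signal near background. These are descriptions over 8 arrays that share their scaling.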

How the data were processed

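The 8 arrays hold Cy3-labelled cDNA from 200 ng of lung RNA each, from 30 mg of tissue, per the labels. Per the file headers, the authors' files come from Feature Extraction 10.7.3.1, Agilent's image software, run on design 074036. The deposited intensity values are the processed signal, background-subtracted and detrended within the array per the file headers, with low values replaced as judged from the values, none of which is at or below 0, and the median spot and local background signals. The other deposited values are flags per spot of 0 or 1. What else the authors did with them is not stated in the sources used here.

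Of 62976 spots, 4259 were controls. Outlier spots were dropped, log2 spots of a probe were averaged, and the log2 of the array's 75th percentile over spots was subtracted. A probe was detected where at least 0.5 of its spots were well above background, and 29801 of 45598 probes, detected on both arrays of at least 1 group, were kept. Unversioned RefSeq accessions gave symbols for 21215 probes through a GRCr8 gene table, used for names only. A gene was represented by its kept probe with the highest mean level, which left 25231 features, 12789 of them with a symbol. No spot was saturated. limma 3.58.1 in R 4.3.3 fitted 4 group means over all 8 arrays (prior degrees of freedom 3.57), with Benjamini-Hochberg adjustment over all features at 0.05 per comparison, and p-values are 2-sided. The fit was tested on simulated data. Figures used Python 3.11.15 and matplotlib 3.10.9.

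A ratio given as at least N-fold sets the mean of the detected group against a floor, taken on each array of the undetected group as its own signal or the lowest detected signal, whichever was higher. Normexp used an offset of 50 and the median spot signal in place of the mean. E1A scaling used, in place of the percentile, the mean log2 of 7 of 10 E1A probes, those with a mean above 6. The other alternatives were the filter on dim probes, averaging the probes of a gene, fitting 2 groups alone, a replicate block and leaving out each array. The lowest probe of a gene, and every probe on its own, were chosen after seeing the data. The genes named were all members, the called genes with the 3 highest and 3 lowest differences of the 2 CC lists in each comparison, and the 3 features closest to Ccl2 and to Ccr2. The members and lists were chosen with earlier results of these data known. Markers of dendritic cells, neutrophils, monocytes and macrophages, and thymus are described in the closing section. The comparison of the members' proteins was not made here. Some genes that this rule would name are not reported here, though the counts include them.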

Additional observations from a re-analysis of the deposited data

How the results depend on the processing

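Ccl3 and Ccl5 in MSC against smoke passed under every alternative run for them. The number of the 8 genes called was 2, 1, 3 and 0 in smoke against naive, EV against smoke, MSC against smoke and EV against MSC. Of all features 47.5%, 39.8%, 59.7% and 7.11% were called in the same order. Under normexp 6, 5, 7 and 7 genes were called, where 73.8%, 68.7%, 78.6% and 50.4% of all features were. With E1A scaling 7, 6, 6 and 3 were, where 83.1%, 73.9%, 88.7% and 40.7% of all features were. For EV against smoke 4 genes were called in a fit of those groups and 2 with quantile normalization, where 51.5% and 27.4% of all features were. Among probes detected on all 8 arrays 4 of the genes remained. There 2 and 1 were called for EV against smoke and EV against MSC, where 49% and 17.8% of all features were. With the lowest probe of a gene 1 and 0 genes were called for smoke against naive and EV against smoke, where 46.1% and 38.7% of all features were. Leaving out an array in turn gave 1 to 3, 0 to 2, 3 to 5 and 0 to 0, with 1 in smoke against naive without smoke or naive replicate 1, 0 in EV against smoke without smoke replicate 1 and 2 there without either MSC or either naive array, and 5 in MSC against smoke without MSC replicate 1. Features called fell to 4386 and 1840 without smoke replicate 1, against 11982 and 10032 (smoke against naive and EV against smoke), to 5424 and 2260 without EV replicate 1 and 2, and in EV against MSC to 0 without either EV or either smoke array, without the filter or in a fit of those groups, and to 125 and 195 without MSC replicate 1 and 2, against 1795. They were 18622, 17326 and 12709 under normexp and 20967, 18641 and 10259 with E1A scaling in smoke against naive, EV against smoke and EV against MSC, and in the last 3076 among probes detected on all 8 arrays and 1178 with the lowest probe. With the replicate number as a block the counts were again 2, 1, 3 and 0. The numbers share only a number: same-numbered arrays correlated in their deviations at -0.149 to 0.138 over pairs of groups, and features called in EV against MSC fell to 1012.

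In smoke against naive the sign turned for Ccl2 (-0.95), Ccl4 (-0.14), Ccl17 (-0.25) and Ccr2 (-1.71) under normexp and for Ccl20 (2.23) with E1A scaling. In EV against smoke it turned for Ccl2 (0.48), Ccl17 (0.32) and Ccr2 (1.38) under normexp and for Ccl22 (-0.0007) and Ccl20 (-1.24) with E1A scaling. In MSC against smoke it turned for Ccl4 (0.59) and Ccl17 (1.15) under normexp, for Ccl2 (-0.21) and Ccr2 (-0.15) with quantile normalization, and for Ccl2 (-3.47), Ccl22 (-0.056), Ccl20 (-1.63) and Ccr2 (-3.03) with E1A scaling. In EV against MSC it turned for Ccl4 (-0.61) under normexp, Ccl17 with quantile normalization (0.26) and E1A scaling (1.44), and Ccl22 (0.055), Ccl20 (0.40) and Ccr2 (0.37) with E1A scaling. With an array left out, values that crossed 0 ran from -0.028 to 1.58 for Ccl2 and -0.36 to 0.63 for Ccr2 (smoke against naive), -0.66 to 0.32 for Ccr2 (EV against smoke), -0.21 to 1.31 for Ccl2 and -1.85 to 1.03 for Ccl17 (MSC against smoke), and -1.53 to 1.35 for Ccl17, -3.28 to 1.00 for Ccl20 and -0.26 to 0.85 for Ccl4 (EV against MSC). The cause was not tested. Signals near background limit Ccl7 and Ccr2, and Ccl2 and Ccl4 on naive replicate 2.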

Other observations

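Cells that carry or make these genes were followed by marker lists. Of 12 monocyte and macrophage markers, the cells that bear Ccr2 and Ccr1, 5 were called higher and 2 lower in smoke than in naive lung by limma, 3 higher and 4 lower in EV than in smoke, and 4 higher and 4 lower in MSC than in smoke. The shares of all features called higher and lower were 12.1% and 35.4%, 29.8% and 9.92%, and 43.3% and 16.4% in the same comparisons. The markers' summed level was 7.84 and 8.25 on the EV arrays, 8.03 and 6.92 on the MSC arrays, 6.23 and 6.32 on the smoke arrays and 8.08 and 8.21 on the naive arrays. Lyz2 carries nearly all of that sum, at 7.81 and 8.22 on the EV arrays, 7.99 and 6.85 on the MSC arrays, 6.06 and 6.22 on the smoke arrays and 8.05 and 8.19 on the naive arrays, so the sum does not follow the 5 markers called higher in smoke. Marco and Mrc1 were not well above background on either MSC array or naive replicate 2, nor Marco on EV replicate 1. The same held for Cd14 on MSC replicate 1 and for Adgre1 on MSC replicate 2 and naive replicate 2. Of the markers called higher in smoke, Adgre1 turned to -0.04 and Mrc1 to -0.16 under normexp. The 2 called lower in smoke, Lyz2 and Cx3cr1, turned to 0.99 and 0.93 with E1A scaling. Each marker called higher after EVs or after MSCs was below 0 with E1A scaling. Mrc1, called lower after MSCs, turned to 0.71 under normexp. Of 6 measured dendritic cell markers, among the known sources of Ccl17 and Ccl22, 0 were called higher and 3 lower in smoke than in naive lung, 4 higher and 0 lower in EV than in smoke, and 5 higher and 0 lower in MSC than in smoke. Each of these calls but that of Cd80 turned sign with E1A scaling. Their summed level was 1.44 and 1.49 on the EV arrays, 1.95 and 2.00 on the MSC arrays, 0.06 and 0.48 on the smoke arrays and 1.51 and 0.90 on the naive arrays.

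Of 6 neutrophil markers 1 was called higher and 0 lower in smoke than in naive lung, and 2 higher and 0 lower in EV than in smoke. In MSC against smoke 1 was called higher and 2 lower. The shares of all features are those given for the monocyte and macrophage markers. Csf3r, called higher in smoke, turned to -0.04 under normexp. S100a9 and Cxcr2, called higher after EVs, turned to -0.47 and -0.86 with E1A scaling. After MSCs S100a9, called higher, turned to -2.32 with E1A scaling. Fpr1 and Csf3r, called lower there, turned to 1.05 and 0.76 under normexp. Of the 4 thymus markers none was among the tested features. Among 4 B cell markers 1, Pax5, was called in each comparison on the percentile scale. It differed by -1.91 in smoke versus naive, 1.48 in EV versus smoke, 2.78 in MSC versus smoke and -1.30 in EV versus MSC. With E1A scaling each of these turned sign, to 1.05, -1.003, -1.24 and 0.235 in the same order. In smoke versus naive 3 of the 4 B cell markers lay above 0, and Pax5 below. Of 4 heart muscle markers limma called 3 higher in MSC than in smoke, where their summed level was 1.505 and 6.12 on the MSC arrays, against 0.31 and 0.42 on the smoke arrays.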
